A study of Mus musculus with 24 samples.

Results

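The microRNA processing and silencing machinery was followed through 10 genes that carry a microRNA from its primary transcript to a silenced mRNA: Drosha, Dgcr8, Xpo5, Dicer1, Tarbp2, Ago1, Ago2, Ago3, Ago4 and Tnrc6a. They were selected from the table by gene symbol, and all 10 were found among the 17696 genes of the count table. The table holds bulk mRNA sequencing of MIN6 cells, a mouse insulinoma line used as a β cell model, as 24 libraries in 6 groups of 4. Scr cells carried a lentiviral vector with a scrambled sequence, ZIP cells a vector with an antisense sequence that inhibits miR-146a-5p, and OE cells a vector that overexpresses miR-146a-5p. Scr+Cy, ZIP+Cy and OE+Cy were the same lines exposed for 24 h to IL-1β (5 ng/ml), IFNγ (100 ng/ml) and TNFα (10 ng/ml). All lines had been selected with puromycin and expanded from picked single clones. The Scr and ZIP vectors shared a backbone with a copGFP reporter, whereas the OE vector had another backbone with a Turbo RFP reporter. Clone, vector and microRNA level therefore cannot be told apart in any comparison between lines. The labels number the libraries of each group from 1 to 4 and give each number a code that all 6 groups share, but they do not say what the code means or whether libraries came from separate cultures, so p values measure the spread between these libraries only.

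MicroRNAs are transcribed as long primary transcripts from which the nuclear microprocessor, the RNase III enzyme Drosha with its RNA-binding partner DGCR8, cuts a hairpin precursor. Exportin 5 (Xpo5) carries the precursor to the cytoplasm, where Dicer with its cofactor TRBP (Tarbp2) trims it to a duplex, and one strand is loaded into an Argonaute protein. The GW182 protein TNRC6A links Argonaute to the CCR4-NOT and PAN2-PAN3 deadenylases, which shorten the poly(A) tail of the target mRNA. Argonaute 2 is the family member that also cuts targets. DGCR8 and Drosha are known to control each other, and Dicer mRNA is itself a known microRNA target. miR-146a is known as an NF-κB induced microRNA that acts back on inflammatory signalling.

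The mature microRNA that the ZIP and OE vectors were made to inhibit or overexpress is shown because its seed (bases 2 to 8, in capitals) pairs with target mRNAs. The sequence is that of RefSeq (GRCm38.p6, chromosome 11, 43374435 to 43374456, minus strand).
miR-146a-5p: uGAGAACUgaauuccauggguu
The microRNA itself was not analysed here, so the line labels were not checked against its level. By qRT-PCR of untreated cells, the study reported a higher level in OE than in Scr and no change in ZIP. It also reported a rise with cytokines in each line relative to the same line untreated. That rise was far larger in Scr than in OE cells and smallest in ZIP cells. Matches to the seed were searched in the 3′ UTRs of GENCODE release M21. Of the 10 genes, 4 held at least 1 match, against 19.6% of the 15431 genes with a 3′ UTR searched. The 3′ UTRs of the 10 genes were longer (median 3013.5 bases) than those of all genes (median 1113 bases). The matches are shown 5′ to 3′ on the mRNA strand with 22 bases each and the paired letters in capitals, since they are the places where the machinery could itself be bound by the microRNA altered in these cells.
Ago1 8mer, chr4:126436029-126436050, minus strand: tgttctagaaatctAGTTCTCA
Ago2 7mer-m8, chr15:73102365-73102386, minus strand: aacactctgacaagaAGTTCTC
Ago3 7mer-A1, chr4:126340085-126340106, minus strand: ttaaaaagcaaggtgGTTCTCA
Tnrc6a first 7mer-A1, chr7:123193385-123193406, plus strand: tgtttactcaagggtGTTCTCA
Tnrc6a second 7mer-A1, chr7:123193849-123193870, plus strand: aaatcaaagagcatgGTTCTCA
An 8mer pairs with bases 2 to 8 and has an A opposite base 1, a 7mer-m8 lacks that A, and a 7mer-A1 lacks the pair with base 8. The Ago3 match lies beyond the 3′ end of the gene as the deposited table places it. No match was found in Ago4, Dicer1, Drosha, Dgcr8, Xpo5 or Tarbp2.

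Depth ranged from 26657792 to 37168232 assigned reads per library (median 30701023). All 8 β cell markers were detected in every library, with a summed level of 15876 to 21631 CPM in Scr, 24300 to 26444 in ZIP and 38303 to 42070 in OE. Ins2, Iapp and Ins1 weighed most in these sums (at most 19882, 12740 and 8709 CPM), and no other marker exceeded 1242 CPM. Mafa was highest in a Scr library, Pdx1 and Nkx6-1 in ZIP libraries, and the other markers in OE or OE+Cy libraries. Markers of leukocytes summed to at most 0.498 CPM, with 2 of 4 listed. The 4 listed markers of fibroblasts and vessels (Col1a1, Col3a1, Pdgfra and Pecam1) summed to at most 29.0 CPM, with the highest Col1a1 levels in the libraries numbered 1 of Scr+Cy, ZIP and Scr. The duct keratin Krt19 was at 0 in all Scr and ZIP libraries with and without cytokines and at 12.4 to 24.2 CPM in those of OE and OE+Cy. With cytokines the β cell markers summed to 16508 to 17958 CPM in Scr+Cy, 21254 to 23805 in ZIP+Cy and 24516 to 31793 in OE+Cy. The markers of other islet cells (Gcg, Sst and Ppy) summed to 246 to 369 CPM in Scr, 101 to 305 in ZIP and 45.9 to 56.0 in OE, and to 134 to 190, 78.3 to 218 and 8.94 to 34.7 CPM in the same lines with cytokines. Gcg weighed most in these sums (at most 369 CPM, in a Scr library), whereas Sst (at most 1.93 CPM) and Ppy (at most 10.9 CPM) were highest in OE libraries. These markers moved with the line and with cytokines, and their part in the differences between groups was not tested. In bulk RNA, a change in the share of cells that express a gene and a change in its level per cell cannot be told apart. Irf1, Nfkbia and Cxcl10, which respond to these cytokines, summed to 39.7 to 86.5 CPM without and 886 to 2650 CPM with cytokines.

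Every member was expressed in every library. Per kilobase of exonic length in Scr cells, Ago2 (21.3 CPM per kb), Tnrc6a (20.5), Drosha (20.4), Xpo5 (19.4), Ago1 (17.7) and Dicer1 (16.2) formed an upper group. Dgcr8 (11.2), Tarbp2 (6.81), Ago3 (5.85) and Ago4 (0.975 CPM per kb) followed, so the Argonautes spanned the whole range of levels in the machinery. Exonic length was the union of GENCODE exons within the deposited gene span, and the isoforms used by these cells can differ from it. Ago4 rested on 115 to 278 reads per library and Tarbp2 on 306 to 465, whereas Dicer1 held 4167 to 7236 and Tnrc6a 4265 to 6286. Levels are given in CPM, read counts scaled by library size and TMM factor, as mean ± SD of 4 libraries, and compare groups for the same gene.

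**Figure D1:**
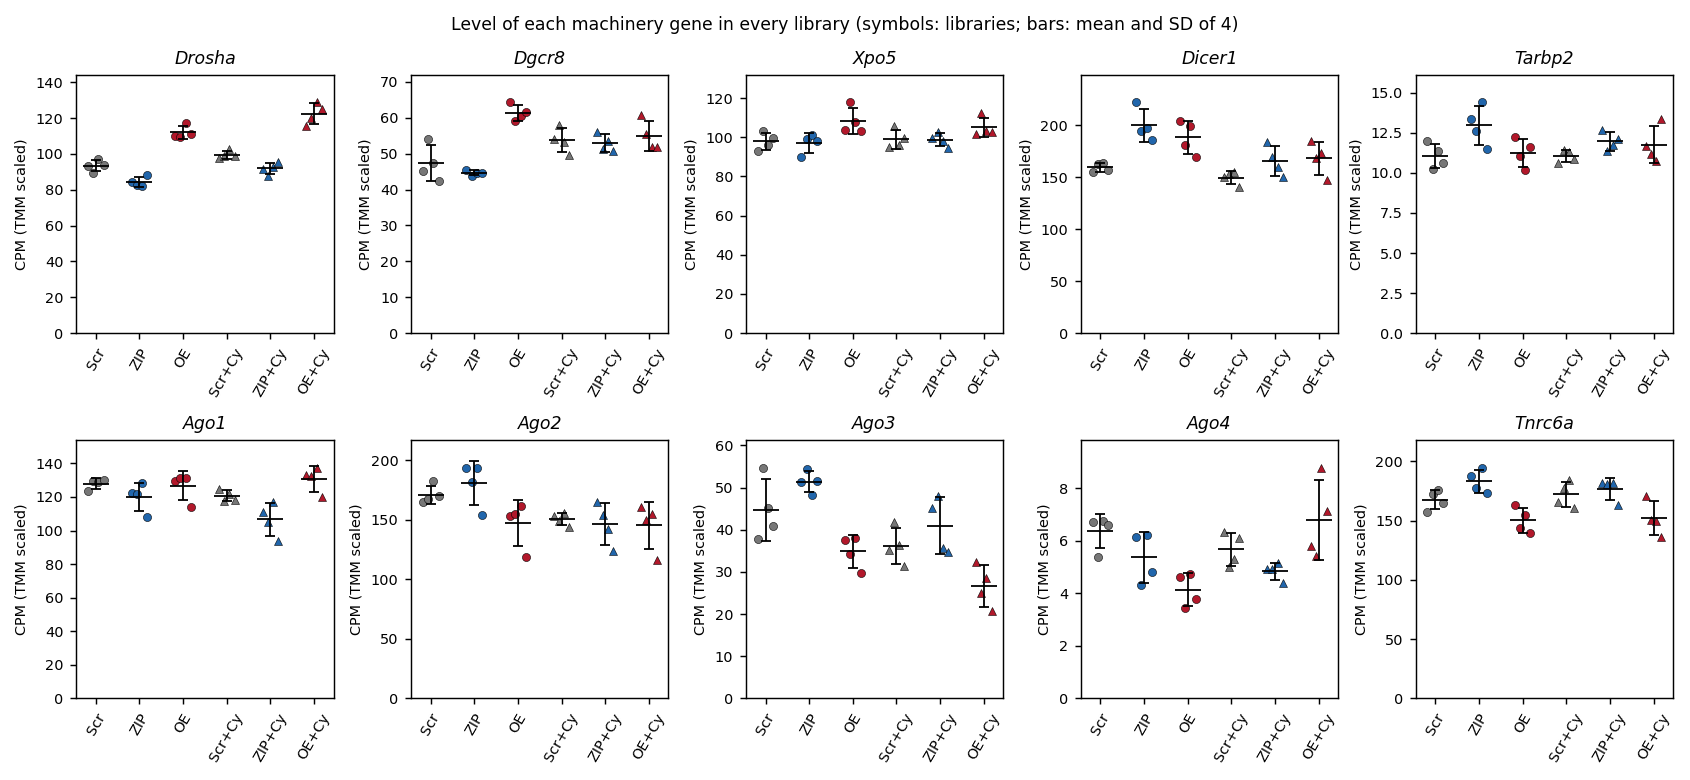
Level of the 10 machinery genes in CPM (y axes, each starting at 0) in the 6 groups (x axes), with circles for libraries without cytokines, triangles for libraries with cytokines, and bars for the mean and SD of 4. OE libraries stand above Scr libraries in Drosha and Dgcr8 and below them in Ago4, and the mean of Ago3 is lowest in OE+Cy (26.6 CPM).

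Fold changes come from edgeR's quasi-likelihood test in a model of all 24 libraries, and a gene was called at a Benjamini-Hochberg adjusted p value under 0.05 over all 17696 genes, with no limit on the fold change. OE compared with Scr called 6 of the 10 genes, 4 higher and 2 lower, where 50.1% of all genes were called. ZIP compared with Scr called 3, 2 higher and 1 lower, beside 28.3% of all genes. Cytokines called none of the 10 in Scr cells (17.8% of all genes), 4 in ZIP cells (26.4%) and 4 in OE cells (44.6%). In Scr cells 3 of the 10 had an unadjusted p value under 0.05 (Ago3, Drosha and Dgcr8), and DESeq2 also called none. There a replicate block called Ago2, Ago3 and Dgcr8, edgeR's filter on low counts Dgcr8, and a fit of only the groups compared Ago2. Between lines with cytokines, ZIP+Cy compared with Scr+Cy called 1 (28.1% of all genes) and OE+Cy compared with Scr+Cy called 3 (53.4%). Against untreated Scr cells, ZIP+Cy called 2 (40.8%) and OE+Cy called 3 (59.5%). Set against the share of all genes, the count was higher by less than 2 of the 10 genes in OE compared with Scr, ZIP with Scr and ZIP+Cy with ZIP, and lower in the other 6 comparisons. Among the 10751 genes with a mean level at least that of the lowest member, 60.9% were called in OE and 35.2% in ZIP compared with Scr. The 5 comparisons with Scr share its 4 libraries.

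The changes were small. The study itself selected genes by a fold of 1.5 or more with p under 0.05 before adjustment. These thresholds were met by Ago4 in OE compared with Scr (25.7% of all genes), by Ago4 in OE+Cy compared with OE (21.0%) and by Ago3 in OE+Cy compared with Scr (34.2%). They were met by none of the 10 in ZIP compared with Scr (14.9% of all genes), Scr+Cy with Scr (10.6%), ZIP+Cy with ZIP (12.5%), ZIP+Cy with Scr+Cy (15.8%), OE+Cy with Scr+Cy (28.5%) or ZIP+Cy with Scr (21.7%). The median size of the log2 fold change over the 10 genes was 0.23 in OE and 0.14 in ZIP, against 0.37 and 0.23 over all genes. Among the 10751 genes with a mean level at least that of the lowest member it was 0.25 and 0.15, close to that of the 10 genes. The ranges of the libraries were separate for 6 members in OE compared with Scr (46.5% of all genes), for 2 in ZIP (27.2%), for 3 in Scr+Cy (21.2%), for 3 in ZIP+Cy compared with ZIP (26.2%) and for 1 in OE+Cy compared with OE (40.2%).

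**Figure D2:**
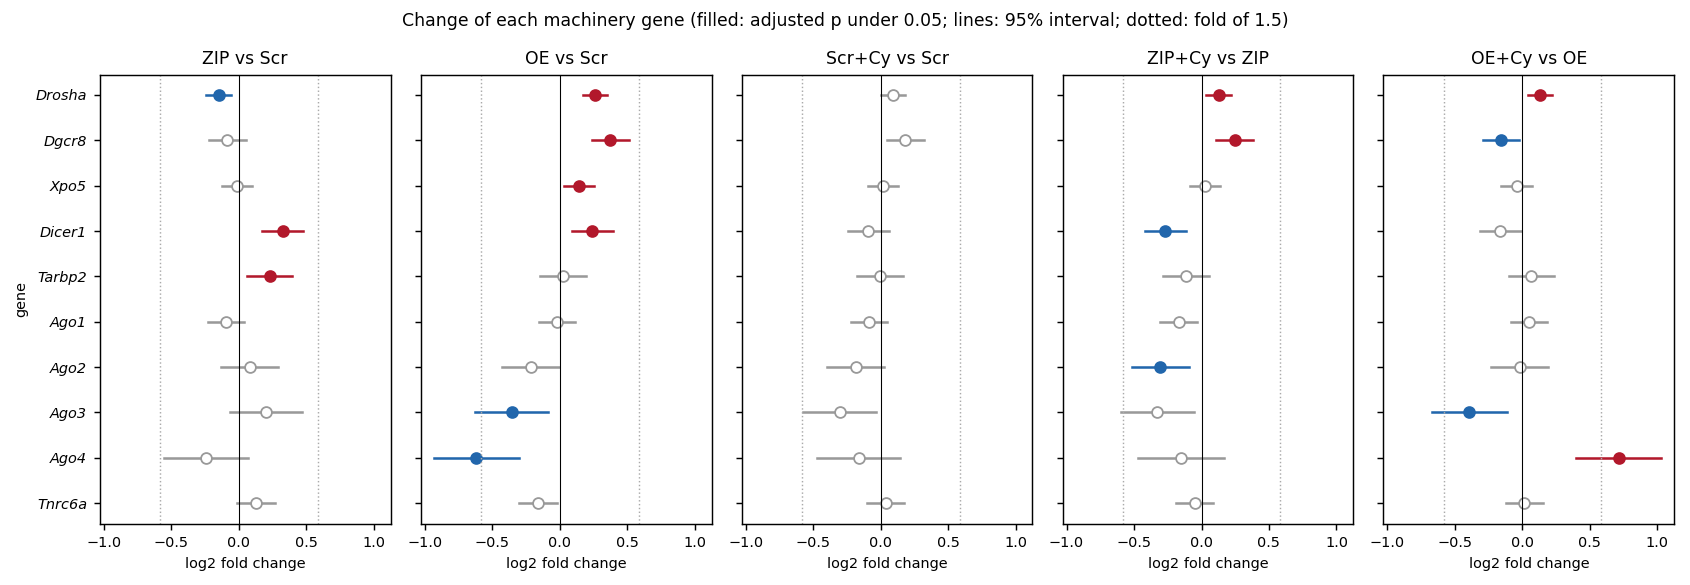
Log2 fold change (x axes) of the 10 genes (y axis) in 5 comparisons, with filled points for an adjusted p value under 0.05 (red higher, blue lower), open grey points for the rest, lines for the 95% interval and dotted lines at a fold of 1.5. OE compared with Scr holds 6 filled points, Scr+Cy compared with Scr holds none, and only the Ago4 points pass the dotted lines.

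Drosha, the nuclease of the microprocessor, rose in OE cells, had the lowest adjusted p value of the 10 genes there, and fell in ZIP cells. Its levels were 93.0, 89.6, 97.3 and 93.6 CPM in the 4 Scr libraries and 110, 110, 117 and 111 CPM in the OE libraries. Every OE library lay above every Scr library, a log2 fold change of 0.26 (SE 0.043, adjusted p = 1.62e-05, edgeR). In ZIP the levels were 84.3, 82.8, 81.9 and 88.0 CPM, all below those of Scr, and the fall was 0.15 on the log2 scale (log2 fold change -0.15, SE 0.043, adjusted p = 0.0115). The ZIP call was lost without Scr replicate 3 and in a fit of only the groups compared (adjusted p of at most 0.107). Cytokines raised Drosha in ZIP cells (84.3 ± 2.67 without and 92.0 ± 3.25 CPM with, a log2 fold change of 0.13, adjusted p = 0.0336) and in OE cells (112 ± 3.58 and 122 ± 5.79 CPM, 0.13, adjusted p = 0.0181). In Scr cells the 4 cytokine libraries also stood above the 4 untreated ones, 99.5 ± 2.31 against 93.4 ± 3.18 CPM, and the log2 fold change of 0.09 did not pass the test (adjusted p = 0.156). Both cytokine calls were lost in a fit of only the groups compared, that in OE also without OE+Cy replicate 3 or 4, and that in ZIP also without ZIP replicate 1, 2 or 3 or ZIP+Cy replicate 1, 3 or 4. The order of the groups was OE+Cy, OE, Scr+Cy, Scr, ZIP+Cy and ZIP. OE+Cy exceeded Scr+Cy by 0.30 (adjusted p = 2.75e-06) and Scr by 0.39 (adjusted p = 2.94e-08), and both calls stayed under the other fits and without each library, although neither fold reached 1.5.

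Dgcr8, the RNA-binding partner of Drosha, rose in OE cells, and with cytokines rose in ZIP cells and fell in OE cells. The Scr libraries held 45.2, 54.2, 47.3 and 42.5 CPM and the OE libraries 64.3, 59.0, 60.6 and 61.5 CPM. The groups did not overlap, and the log2 fold change was 0.37 (SE 0.065, adjusted p = 3.26e-05). With cytokines Dgcr8 rose in ZIP cells (44.6 ± 0.691 CPM without and 53.0 ± 2.43 with, a log2 fold change of 0.25, adjusted p = 0.00651), and all 4 treated libraries lay above all untreated ones. In OE cells it was 61.4 ± 2.23 CPM without and 55.0 ± 4.22 CPM with cytokines, a fall of 0.16 (log2 fold change -0.16, adjusted p = 0.0494) that sat at the threshold. That last call was lost with DESeq2 (adjusted p values over the alternatives 0.0116 to 0.129), with its size factors, in a fit of only the groups compared, and without any 1 of OE replicates 1 to 4 or OE+Cy replicates 2 to 4. In Scr cells the log2 fold change of 0.18 narrowly missed the threshold (adjusted p = 0.0536). It passed with edgeR's filter on low counts (adjusted p = 0.0438) and with replicate number as a block (adjusted p = 0.0253). It also passed without Scr replicate 2 (0.26, adjusted p = 0.00503) or Scr+Cy replicate 4 (0.22, adjusted p = 0.031). The difference between the cytokine responses of OE and Scr cells was itself called (log2 difference -0.34, SE 0.092, adjusted p = 0.00983). With cytokines the 3 lines held 53.7, 53.0 and 55.0 CPM in Scr+Cy, ZIP+Cy and OE+Cy, so the gap seen without cytokines was no longer detected (OE+Cy compared with Scr+Cy 0.03, 95% interval -0.10 to 0.17).

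The count of Dgcr8 is uncertain because its 3′ end overlaps by 808 bases that of Trmt2a, a tRNA methyltransferase gene on the other strand, and the use of strand in counting is not given in the sources used here. All 24 Dgcr8 values were not whole numbers. The same held for 21 values of Drosha and 10 of Tarbp2, which no other gene of the count table overlapped. Trmt2a followed a course that was alike in part, with 73.3 ± 1.92 CPM in Scr, 88.7 ± 4.40 in OE and 72.8 ± 3.88 in OE+Cy. Its log2 fold change was 0.27 in OE (adjusted p = 0.000291), and -0.29 in OE+Cy compared with OE (adjusted p = 0.000228). The response differed between OE and Scr cells for Trmt2a as well (-0.28, adjusted p = 0.0159). In ZIP cells with cytokines Trmt2a was not called (0.12, adjusted p = 0.121), where Dgcr8 was. OE+Cy compared with Scr called Dgcr8 higher (0.22, adjusted p = 0.00622), under every other fit and without each library, but not Trmt2a (-0.01, adjusted p = 0.885). With cytokines in Scr cells the log2 fold changes were 0.18 for Dgcr8 and -0.005 for Trmt2a, and neither was called. The part of shared reads in the Dgcr8 result was not tested.

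The region around Dgcr8 on chromosome 16 (mm10, 18253965 to 18289168, minus strand) also moved in ZIP cells. Within 2 Mb, 41 other genes had a mean of at least 10 CPM. In ZIP compared with Scr, 17 of them were called lower by more than 0.5 on the log2 scale, with log2 fold changes of -1.13 to -0.64. All 17 were among the 20 genes that started at -1.99 to -0.492 Mb from the start of Dgcr8, where negative distances are lower chromosome positions. The 21 genes from -0.456 to 2.01 Mb had log2 fold changes of -0.26 to 0.31, and Dgcr8 itself one of -0.08 (adjusted p = 0.373). In OE compared with Scr, 22 of the 41 neighbours were called higher and 5 lower (median 0.16), beside 0.37 for Dgcr8. There 50.1% of all genes were called, and 60.9% of those with a mean level at least that of the lowest member. This window was chosen after its values were seen.

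**Figure D3:**
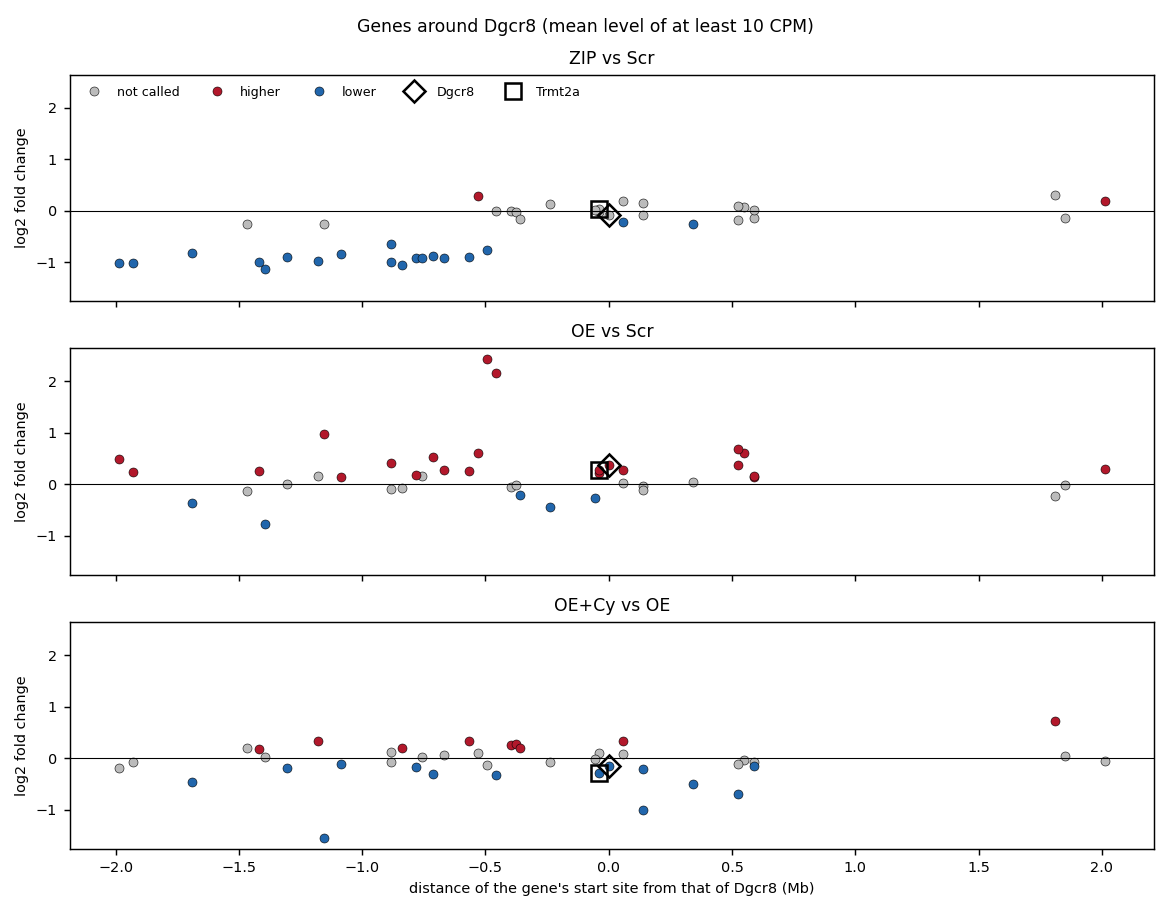
Log2 fold change (y axes) of genes within 2 Mb of Dgcr8 by the distance of their start site from that of Dgcr8 in Mb (x axis), in 3 comparisons, with red and blue for genes called higher and lower and open symbols around Dgcr8 and Trmt2a. In ZIP a block of genes with log2 fold changes of -1.13 to -0.64 ends at -0.492 Mb from Dgcr8. Dgcr8 and Trmt2a move in the same direction in OE compared with Scr and in OE+Cy compared with OE.

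Xpo5, the exporter of precursors, varied least of the 10, with a highest library 1.31 times the lowest. It was 97.9 ± 4.36 CPM in Scr, 97.0 ± 4.95 in ZIP and 108 ± 6.75 in OE. The OE libraries (104, 118, 108 and 103 CPM) all exceeded the Scr libraries (93.2, 103, 95.9 and 99.3 CPM), with a log2 fold change of 0.14 (SE 0.053, adjusted p = 0.0265). The call was lost without Scr replicate 1 or OE replicate 2 and in a fit of only the groups compared (adjusted p of at most 0.109). Cytokines gave no call in any line, with 95% intervals of the log2 fold change within -0.16 to 0.14.

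Dicer1, which cuts precursors to duplexes, rose in both modified lines. The Scr libraries held 155, 163, 164 and 156 CPM, the ZIP libraries 222, 195, 197 and 185 CPM, and the OE libraries 204, 181, 200 and 170 CPM. All 8 libraries of ZIP and OE exceeded all 4 of Scr, with a log2 fold change of 0.33 in ZIP (SE 0.073, adjusted p = 0.00127) and 0.24 in OE (SE 0.073, adjusted p = 0.00743). Both comparisons share the Scr libraries. Cytokines lowered Dicer1 in ZIP cells to 166 ± 14.3 CPM (log2 fold change -0.27, adjusted p = 0.00742). In OE cells the level with cytokines was 168 ± 15.8 CPM (-0.16, adjusted p = 0.0706), which passed when replicate number entered as a block (adjusted p = 0.00913), without OE replicate 4 (adjusted p = 0.0273) and without OE+Cy replicate 1 (adjusted p = 0.0259). In Scr cells all 4 libraries with cytokines lay below those without, 150 ± 6.35 against 159 ± 4.42 CPM, and the test was not passed (-0.09, adjusted p = 0.45). The response did not pass a test of difference between ZIP and Scr cells (-0.18, 95% interval -0.39 to 0.04, adjusted p = 0.844). With cytokines both modified lines again had the higher means, but neither passed against Scr+Cy (ZIP+Cy 0.15, adjusted p = 0.137, and OE+Cy 0.17, adjusted p = 0.0537). OE+Cy passed with DESeq2 (adjusted p = 0.0215), with its size factors (0.0299), with edgeR's filter on low counts (0.0379), with a replicate block (0.00773) and without OE+Cy replicate 4 (0.00846).

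Tarbp2, whose product TRBP partners Dicer, was called in ZIP compared with Scr and in none of the other 10 comparisons. Its levels were 11.98, 10.3, 11.4 and 10.6 CPM in Scr and 13.4, 12.6, 14.4 and 11.5 CPM in ZIP, and 1 ZIP library lay within the Scr range. The log2 fold change was 0.23 (SE 0.080, adjusted p = 0.0339), and the call was lost without Scr replicate 2 or 4, without ZIP replicate 1 or 3 and in a fit of only the groups compared (adjusted p of at most 0.126). In OE the log2 fold change was 0.02 (95% interval -0.14 to 0.19), and cytokines gave no call in any line.

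The Argonautes changed by different amounts, and differences between them were not tested. All 4 log2 fold changes were negative in OE compared with Scr, Scr+Cy with Scr and ZIP+Cy with ZIP. In OE+Cy compared with OE, Ago3 was called lower and Ago4 higher. In sum, the 4 genes held 350 ± 13.3 CPM in Scr, 358 ± 26.8 in ZIP and 313 ± 31.7 in OE, and 313 ± 9.29, 299 ± 29.9 and 310 ± 31.4 CPM in the same lines with cytokines. Ago2 made up 48.8% and Ago1 36.6% of that sum in Scr, Ago3 12.7% and Ago4 1.82%. In OE+Cy the shares were 46.9%, 42.4%, 8.55% and 2.21%. The ratio of Ago1 to Ago3 was 2.92 ± 0.407 in Scr, 2.34 ± 0.241 in ZIP, 3.64 ± 0.219 in OE and 5.01 ± 0.709 in OE+Cy. Ago4, Ago1 and Ago3 lie side by side on chromosome 4 (mm10, 126489543 to 126533458, 126435013 to 126468631 and 126340678 to 126429542, all on the minus strand). Their log2 fold changes were -0.62, -0.02 and -0.35 in OE compared with Scr, and 0.71, 0.05 and -0.39 in OE+Cy compared with OE. The 31 other genes within 2 Mb of Ago1 with at least 10 CPM had a median log2 fold change of -0.14 in OE. Of these, 13 were called lower and 4 higher, where 50.1% of all genes were called. The coding sequences of the 4 paralogs are alike, and the estimated counts of Ago1 (23 of 24 libraries) and Ago3 (24 of 24) were not whole, so reads may have been divided. Those of Ago2 and Ago4 were whole throughout, and those of Drosha, outside this family, were not whole in 21 of 24 libraries.

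Ago4, the least abundant Argonaute, fell in OE cells and rose with cytokines in the same line. The Scr libraries held 6.72, 5.38, 6.75 and 6.60 CPM, the OE libraries 4.62, 3.43, 4.75 and 3.77 CPM, and the OE+Cy libraries 5.80, 5.42, 8.78 and 7.14 CPM. Each OE library lay below every library of Scr and of OE+Cy. The log2 fold change was -0.62 in OE compared with Scr (SE 0.149, adjusted p = 0.00128) and 0.71 in OE+Cy compared with OE (SE 0.150, adjusted p = 0.00037). Scr cells moved from 6.36 ± 0.659 to 5.67 ± 0.633 CPM with cytokines (-0.16, adjusted p = 0.514), and the difference between the responses of OE and Scr cells was called (0.88, SE 0.210, adjusted p = 0.00432). None of these calls was lost under another setting or without any single library. ZIP cells held 5.36 ± 0.957 CPM (-0.24, adjusted p = 0.24) and 4.84 ± 0.319 CPM with cytokines. ZIP+Cy lay below untreated Scr (-0.40, adjusted p = 0.0375), a call that was lost without Scr replicate 1, 3 or 4 or ZIP+Cy replicate 1, 2 or 4.

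Ago3 fell in OE cells and fell further with cytokines. The Scr libraries held 37.7, 54.8, 45.2 and 41.0 CPM, the OE libraries 37.6, 34.4, 38.0 and 29.6 CPM, and the OE+Cy libraries 32.2, 25.0, 28.6 and 20.7 CPM. Scr replicate 1 lay within the OE range and the other Scr libraries above it, and all OE+Cy libraries lay below all Scr libraries. The log2 fold change was -0.35 in OE (SE 0.129, adjusted p = 0.0249), -0.39 in OE+Cy compared with OE (SE 0.131, adjusted p = 0.0172) and -0.75 in OE+Cy compared with Scr (SE 0.131, adjusted p = 2.77e-05). The first was lost without Scr replicate 2 or 3 or OE replicate 2 or 4, and the second without OE replicate 3 or OE+Cy replicate 4, whereas the third was kept throughout. In Scr and ZIP cells with cytokines the log2 fold changes were -0.30 (adjusted p = 0.114) and -0.33 (adjusted p = 0.0638), close in size to that in OE cells, and the responses were not shown to differ (OE against Scr -0.09, 95% interval -0.48 to 0.30). OE+Cy lay below Scr+Cy by 0.44 (log2 fold change -0.44, adjusted p = 0.00645).

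Ago2, the Argonaute that can cut its targets, fell with cytokines in ZIP cells (181 ± 18.7 CPM without and 146 ± 17.5 with, a log2 fold change of -0.30, adjusted p = 0.0271). The ranges overlapped, and the call was lost without ZIP replicate 1, 2 or 3 or ZIP+Cy replicate 3 or 4. In OE the levels of 154, 155, 162 and 119 CPM were all below those of Scr (165, 167, 182 and 170 CPM), but the log2 fold change of -0.21 did not pass (adjusted p = 0.0817). Ago1 changed little without cytokines (ZIP -0.09, OE -0.02). It was lower in ZIP+Cy (107 ± 9.77 CPM) than in Scr+Cy (121 ± 3.36 CPM, -0.18, adjusted p = 0.0406) and than in Scr (128 ± 2.998 CPM, -0.26, adjusted p = 0.00179). The first of these calls was lost without any 1 of the 4 Scr+Cy libraries or of ZIP+Cy replicates 1, 2 and 4, in a fit of only the groups compared and with DESeq2's size factors. The second was kept in the other fits and without each library, with a fold below the study's threshold.

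Tnrc6a, the GW182 scaffold between Argonaute and the deadenylases, was 168 ± 8.39 CPM in Scr, 183 ± 9.78 in ZIP and 150 ± 10.7 in OE. Neither line passed the test (ZIP 0.13, adjusted p = 0.162, and OE -0.16, adjusted p = 0.051), and OE passed without Scr replicate 1 (adjusted p = 0.033) or OE replicate 1 (adjusted p = 0.0223) and in a fit of only the groups compared (adjusted p = 0.0464). With cytokines the levels were 172 ± 10.6, 177 ± 9.25 and 152 ± 14.4 CPM in Scr+Cy, ZIP+Cy and OE+Cy, and none of the 3 cytokine comparisons was called. OE+Cy was called lower than Scr+Cy (-0.18, adjusted p = 0.0247), a call lost with DESeq2's size factors, in a fit of only the groups compared, and without Scr+Cy replicate 2 or 3 or OE+Cy replicate 2, 3 or 4.

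**Figure D4:**
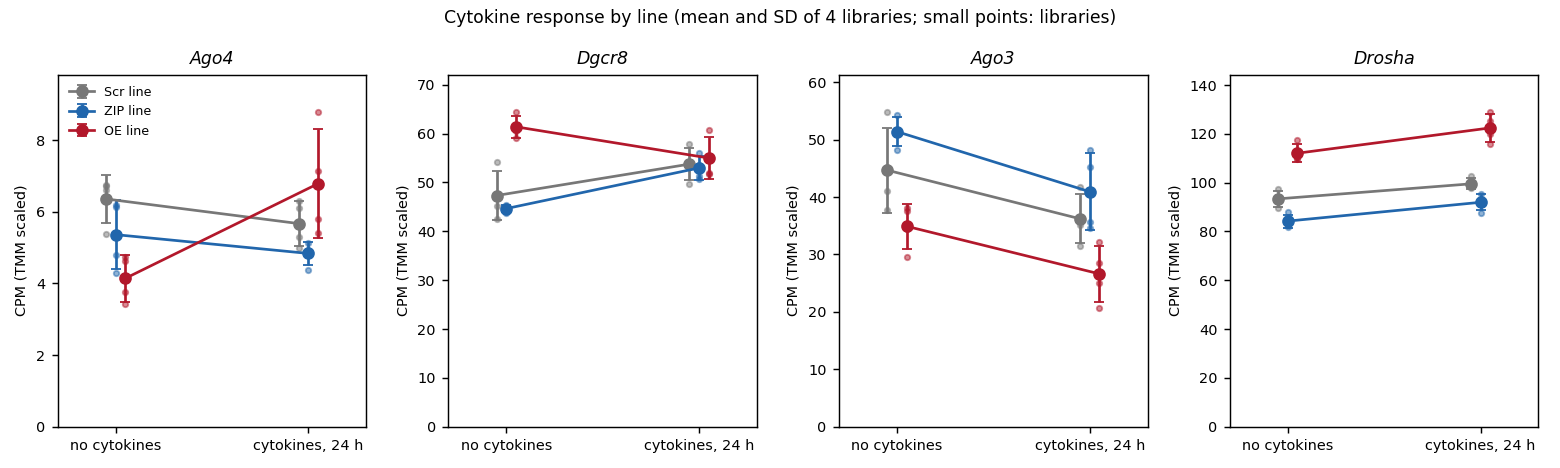
Mean and SD of 4 libraries in CPM (y axes, starting at 0) without and with cytokines (x axes) for Ago4, Dgcr8, Ago3 and Drosha in the Scr, ZIP and OE lines, with small points for libraries. In Ago4 the OE mean moves from 4.14 to 6.78 CPM and crosses the other lines, in Dgcr8 it moves from 61.4 to 55.0 CPM towards them, and in Ago3 and Drosha all 3 lines move in the same direction.

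Of the 10 genes, Ago4 and Dgcr8 passed the test of a difference between the responses of OE and Scr cells, where 20.0% of all genes were called. By the study's thresholds applied to that difference, Ago4 alone passed (12.1% of all genes). None of the 10 differed between ZIP and Scr cells, at an adjusted or an unadjusted p value under 0.05 or with DESeq2, and 0.0565% of all genes did (3.29% by the study's thresholds, and again none of the 10). In 5 comparisons libraries with the same replicate number deviated together. With that number as a block, Scr+Cy compared with Scr called 3 members (Ago2 -0.19, Ago3 -0.30 and Dgcr8 0.18, adjusted p = 0.0449, 0.0397 and 0.0253). Blocked, ZIP+Cy compared with ZIP also called Ago1 (-0.17, adjusted p = 0.00761) and Ago3 (-0.34, adjusted p = 0.016), and ZIP+Cy compared with Scr+Cy also called Dicer1 (0.15, adjusted p = 0.0294) and Drosha (-0.11, adjusted p = 0.0203). The libraries numbered 4 held the lowest level of their group in 5 of 6 groups for Ago2, Dicer1 and Tnrc6a.

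The genes that carry a seed match for miR-146a-5p (the sequences printed above for Ago1, Ago2, Ago3 and Tnrc6a) had log2 fold changes of -0.02, -0.21, -0.35 and -0.16 in OE, of which Ago3 was called. The 6 genes without a match had a median of 0.19 and ranged from -0.62 (Ago4) to 0.37 (Dgcr8). In ZIP the genes with a match ranged from -0.09 to 0.20 (median 0.10), and none was called. These medians describe 4 and 6 genes and were not tested. The promoters of 9 of the 10 genes in the RefSeq table (300 bases around the start, Ago2 has no entry, Ago1 has 2) were searched on both strands for the letters of an interferon response core (GAAA, any 2 bases, GAAA, in 3.44% of the 32851 promoters of that table), a GAS element (TTCNNNGAA, 8.3%), a CRE (TGACGTCA, 1.79%) and an E-box (CACGTG, 7.15%). None of these letters was found in the windows searched.

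As a description over all 24 libraries, the log2 level of Ago3 was most alike that of Tnrc6a (Pearson r = 0.77) and of Ago2 (0.71), and it ran against Drosha (-0.84). Drosha and Dgcr8 had an r of 0.63 over all libraries and -0.42 once the group means were taken out. Ago2 and Dicer1 rose to 0.87 and Ago1 and Ago2 to 0.83 after the group means were taken out, so these pairs varied together among libraries of 1 group. These values share libraries, depth and the differences between groups.

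The machinery around the 10 genes was described by 67 further genes in 6 lists, all of them measured. In OE compared with Scr 24 were called higher and 14 lower (50.1% of all genes were called), and in ZIP compared with Scr 6 higher and 12 lower (28.3%). Cytokines called 12 higher and 4 lower in Scr (17.8%), 15 higher and 3 lower in ZIP (26.4%), and 25 higher and 14 lower in OE cells (44.6%). Among the 10751 genes with a mean level at least that of the lowest member, 60.9% were called in OE and 35.2% in ZIP compared with Scr. With cytokines 22.4%, 34.5% and 57.5% of those genes were called in Scr, ZIP and OE cells. The counts of single lists that follow rest on 3 to 16 genes, are to be read against the same shares, and were not tested as lists. None differed between ZIP and Scr in the response to cytokines, and 16 did between OE and Scr, beside 20.0% of all genes (9 with a more positive and 7 with a more negative response in OE). Every change given by value for these genes passed the same edgeR test at an adjusted p value under 0.05.

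**Figure D5:**
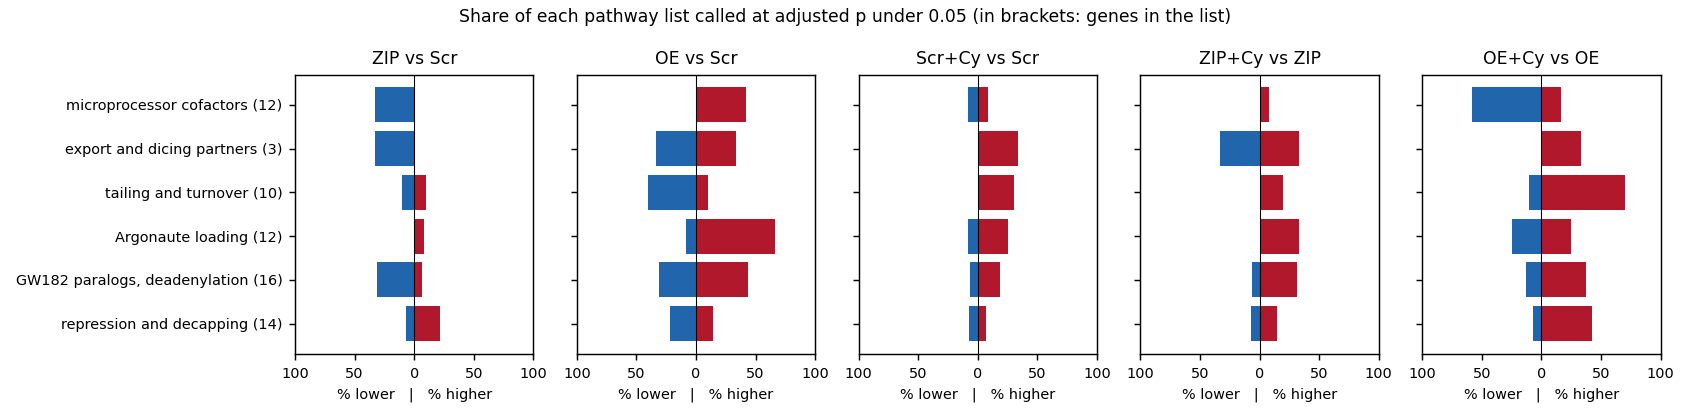
Percent of the genes of each of 6 pathway lists (y axis, with the number of genes) called higher (red, to the right) or lower (blue, to the left) in 5 comparisons (x axes in percent). Over all genes, 28.3% were called in ZIP and 50.1% in OE compared with Scr, and 17.8%, 26.4% and 44.6% with cytokines in Scr, ZIP and OE cells, and the lists hold 3 to 16 genes each.

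Of the 12 cofactors of the microprocessor and primary transcripts, none was higher and 4 were lower in ZIP (28.3% of all genes called), 5 were higher and none lower in OE (50.1%), and 7 were lower and 2 higher in OE+Cy compared with OE (44.6%). In ZIP the largest falls were those of Erh, a small dimer known to bind the microprocessor (93.1 to 74.5 CPM, log2 fold change -0.32), and of the RNA-binding protein Hnrnpa2b1 (498 to 435 CPM, -0.20). Hnrnpa2b1 rose in OE to 605 CPM (0.28), as did Safb2, known as a helper of Drosha at poor hairpins (40.1 to 49.2 CPM, 0.30). Cytokines lowered Srrt, which couples the cap-binding complex to the microprocessor, in OE cells (172 to 127 CPM, -0.44), together with the cap-binding subunit Ncbp1 (116 to 90.5 CPM, -0.36). Hnrnpa1, known to bind certain primary microRNAs, rose with cytokines in Scr (0.34), ZIP (0.53) and OE cells (0.30), and the helicase Ddx17 fell in Scr (-0.18) and OE cells (-0.12).

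Among the 3 partners of export and dicing, Adar stood out with cytokines. This RNA-editing enzyme, known as an interferon-induced gene that also binds Dicer, rose from 58.0 to 155 CPM in Scr (1.42), from 53.8 to 153 CPM in ZIP (1.51) and from 60.2 to 216 CPM in OE cells (1.84). Prkra, whose product PACT is the other Dicer partner beside TRBP, was lower in OE (14.9 to 11.1 CPM, -0.42) and in ZIP (12.9 CPM, -0.21), and fell with cytokines in ZIP cells (10.7 CPM, -0.27). Ran, the GTPase that powers export by Exportin 5, was higher in OE (282 to 316 CPM, 0.17).

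Of the 10 genes of tailing, decay and turnover, 1 was higher and 4 were lower in OE (50.1% of all genes called), and 1 was higher and 1 lower in ZIP (28.3%). Lin28b, which binds let-7 precursors and blocks their processing, was at 7.67 CPM in Scr and fell to 0.360 CPM in OE (-4.40) and rose to 19.7 CPM in ZIP (1.36). Its paralog Lin28a was low (1.75 CPM in Scr), lower in ZIP (0.904 CPM, -0.95) and higher in OE (3.29 CPM, 0.91). Tut7, a terminal uridylyltransferase of precursors, fell from 119 to 53.8 CPM in OE (-1.15), and cytokines raised it in Scr (0.51), ZIP (0.67) and OE cells (0.78). Zc3h12a encodes Regnase-1, an RNase known to be induced by inflammation and to cut precursor loops. It was at 0.577, 0.556 and 0.523 CPM in untreated Scr, ZIP and OE cells and at 6.16, 13.4 and 37.4 CPM with cytokines (log2 fold changes of 3.38, 4.57 and 6.14).

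Of the 12 genes of Argonaute loading and cofactors, 8 were higher and 1 was lower in OE, where 50.1% of all genes were called. Mov10, an interferon-induced helicase that binds Argonautes, was lower in OE (12.99 to 5.75 CPM, -1.18) and rose with cytokines in all lines, to 75.6 CPM in Scr (2.54), 64.9 CPM in ZIP (2.55) and 94.6 CPM in OE cells (4.04). Limd1, which links Argonaute to TNRC6A, was at 26.1 CPM in Scr, 72.9 CPM in OE (1.48) and 49.7 CPM in ZIP (0.93), and further with cytokines in Scr (0.31), ZIP (0.31) and OE (0.55).

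Of the 16 genes of GW182 paralogs and deadenylation, 7 were higher and 5 lower in OE (50.1% of all genes called), and 1 was higher and 5 lower in ZIP (28.3%). Cnot1, the scaffold of the CCR4-NOT complex, held 571 CPM in Scr and was lower at 398 CPM in ZIP (-0.52) and 388 CPM in OE (-0.56). Cnot10, another subunit, rose in ZIP (29.1 to 51.8 CPM, 0.83), and Pan2, the catalytic subunit of the PAN2-PAN3 deadenylase, rose in OE (11.9 to 17.8 CPM, 0.59) and again with cytokines (27.5 CPM, 0.63), and was lower in ZIP (9.52 CPM, -0.31). Cytokines raised the deadenylase Cnot6l in Scr (0.57), ZIP (0.42) and OE cells (0.73), and the GW182 paralog Tnrc6b in Scr (0.38), ZIP (0.34) and OE cells (0.45).

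Of the 14 genes of repression and decapping, 2 were higher and 3 lower in OE (50.1% of all genes called), and 3 were higher and 1 lower in ZIP (28.3%). Ddx6, a helicase that CCR4-NOT recruits, rose in OE (385 to 521 CPM, 0.44) and fell there with cytokines (-0.26), and Lsm14b was lower in OE than in Scr (-0.38). Xrn1, the 5′ to 3′ exonuclease that degrades decapped mRNA, rose in ZIP (65.99 to 109 CPM, 0.72) and was lower in OE (56.9 CPM, -0.21), and in ZIP the decapping enzyme Dcp2 fell (105 to 81.0 CPM, -0.37). Cytokines raised Dcp2 in Scr (0.43), ZIP (0.55) and OE cells (0.39) and Dcp1b in OE cells (0.71), and lowered Lsm14b in Scr (-0.21) and ZIP cells (-0.23).

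Besides the members, neighbours were examined only for Limd1, Cnot10, Xrn1, Lin28b, Tut7 and Cnot1, picked by name and not by a rule. Several line differences of these genes were shared with the genes around them. Over all genes, 28.3% were called in ZIP and 50.1% in OE compared with Scr. Within 2 Mb, all 15 measured neighbours of Xrn1 and all 11 of Cnot10, both on chromosome 9, were called higher in ZIP (medians 0.61 and 0.77), as were 20 of 22 around Limd1 (median 0.83). Of the 30 neighbours of Cnot1, 27 were called lower in ZIP (median -0.52) and 25 in OE (median -0.61), and 13 of the 14 neighbours of Tut7 were called lower in OE (median -0.86). Around Lin28b, by contrast, the 10 neighbours had a median of 0.12 in OE and -0.12 in ZIP. Around the members the medians lay between -0.22 (Dgcr8 in ZIP) and 0.16 (Dgcr8 and Drosha in OE).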

How the data were processed

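Total RNA of stable MIN6 lines was sequenced as mRNA libraries by the authors. The submitters' processing notes name FastQC, Partek 11.0.24.0204, STAR 2.7.8a, DESeq2 and the mm10 build, and the study's methods name RefSeq transcripts. The authors deposited estimated counts per gene, of which 30.3% were not whole. All 17696 genes had at least 10 reads in total. How reads were divided between genes, and whether strand was used, is not given in the sources used here. A second, normalized table was not used.

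Counts were rounded to whole numbers. edgeR 4.0.16 (R 4.3.3) fitted TMM-scaled counts of all genes in 24 libraries with 6 group means, and edgeR's quasi-likelihood test gave p values, adjusted by the Benjamini-Hochberg method over all genes. Every adjusted p value comes from this test unless another fit is named. Intervals are 95% intervals, and the difference of responses is a contrast of 4 groups. Scripts were tested on simulated data. Alternatives were DESeq2 1.42.0, its size factors, edgeR's filter on low counts, a replicate block, only the groups compared, the study's thresholds and leaving out each library. Groups and replicate numbers came from the labels. Replicates differed beyond sampling noise (chi-square per degree of freedom 7.37 to 56.9 over 36 pairs), and none were merged. The numbers were taken to pair libraries where every pair's deviations from the group means correlated above 0.1, as in ZIP with Scr (0.141 to 0.634), Scr+Cy with Scr (0.413 to 0.626), ZIP+Cy with ZIP (0.261 to 0.397), OE+Cy with OE (0.162 to 0.455) and ZIP+Cy with Scr+Cy (0.191 to 0.37). The labels do not say what a number shares.

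All 10 members were named. From each pathway list, at most the 2 called genes with the largest change and at least 1 CPM were named per comparison. Neighbouring genes lay within 2 Mb with a mean of at least 10 CPM. Members and lists were chosen with earlier results of these data known. Counting noise is smallest for genes with many reads, and depth was similar (26657792 to 37168232 reads). Ago4 and Tarbp2 had the fewest reads of the members. In OE compared with Scr the SE of the log2 fold change was largest for Ago4 (0.149), then Ago3 (0.129), Ago2 (0.100) and Tarbp2 (0.080).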

Additional observations from a re-analysis of the deposited data

Results flagged for a closer look

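The cytokine responses of OE and Scr cells differed for 2 members. The difference of log2 fold changes was 0.877 for Ago4 (adjusted p = 0.00432) and -0.342 for Dgcr8 (adjusted p = 0.00983) in edgeR's quasi-likelihood test. Dgcr8 shares 808 bases with Trmt2a, whose response differed in the same direction (-0.28), and the part of shared reads was not tested. The lowest and the highest library were each checked in 60 sets of 4 libraries (each member in each group), by the ratio of its gap to the range of the group. In 4 sets a library lay far from the other 3, each time the lowest. Chance gives about 1 in 20 for either end together, and the sets share libraries. Ago1 was 123.5 CPM in Scr replicate 1 against 128.9 to 129.9 in the others (ratio 0.848) and 113.7 CPM in OE replicate 4 against 129.6 to 131.5 (ratio 0.894). Ago4 was 5.38 CPM in Scr replicate 2 against 6.60 to 6.75 (ratio 0.888). Tnrc6a was 163 CPM in ZIP+Cy replicate 4 against 181 to 182 (ratio 0.943).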

How the results depend on the processing

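Of 28 calls of members over the 11 comparisons, 16 were kept under every other fit and without each library, none changed direction, and 4 met the study's thresholds (Ago4 in OE compared with Scr, in OE+Cy compared with OE and in the difference of responses, and Ago3 in OE+Cy compared with Scr). Counts of members called changed by more than 1.5 times as follows, and the cause was not tested. DESeq2 called 2 in ZIP+Cy compared with Scr+Cy, its size factors in edgeR 0, and edgeR's filter on low counts 2 there and 1 in Scr+Cy compared with Scr. With a replicate block the counts were 3 in Scr+Cy compared with Scr, 3 in ZIP+Cy compared with Scr+Cy, and, where numbers do not pair the libraries, 5 in OE+Cy compared with Scr+Cy, 4 in ZIP+Cy compared with Scr and 6 in OE+Cy compared with Scr. In OE compared with Scr, also unpaired, the block added Ago2 and Tnrc6a to make 8. Fitting only the groups compared, with fewer libraries to estimate the spread, gave 1 in ZIP, 1 in Scr+Cy, 2 in OE+Cy compared with OE and 0 in ZIP+Cy compared with Scr+Cy. The study's thresholds gave 1 each in OE compared with Scr, OE+Cy compared with OE, OE+Cy compared with Scr and the difference of responses between OE and Scr, and 0 in the other 5 comparisons with a call. Leaving out each library gave 2 to 3 members in ZIP, 4 to 7 in OE, 0 to 1 in Scr+Cy compared with Scr, 2 to 5 in ZIP+Cy compared with ZIP, 1 to 5 in OE+Cy compared with OE, 0 to 1 in ZIP+Cy and 2 to 4 in OE+Cy compared with Scr+Cy, 1 to 3 in ZIP+Cy and 3 to 5 in OE+Cy compared with Scr, and 0 and 2 throughout for the differences of responses of ZIP and OE. With DESeq2's size factors OE+Cy compared with Scr+Cy called 2 higher and 1 lower, against 1 and 2, and OE+Cy compared with OE 2 and 1, against 2 and 2. Member levels moved by less than 1 SD under that scaling. Ago4, with 115 to 278 reads per library, was the member most limited by depth.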
